A study of Rattus norvegicus with 8 samples.

Results

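The 7 cadherin genes described here are Cdh1, Cdh2, Cdh3, Cdh6, Cdh11, Cdh13 and Cdh16, which mark the epithelium of the nephron or the stroma and vessels of the kidney. They were taken by gene symbol: every probe set that the platform annotation pairs with exactly 1 of these symbols was used, which gave 7 of 29214 probe sets, 1 for each gene. All 7 genes were among the 13796 of 17245 genes that passed the filter on dim genes. Each level was read from the RNA of a whole kidney, taken at 4 weeks of age from 8 rats in all, with 1 Affymetrix Rat Gene 1.1 ST array per sample. The HSRA-S group comprised 4 rats born with a congenital solitary kidney. The control group, HSRA-C, comprised 4 rats with 2 kidneys. Both groups carry the HSRA background, a rat model of missing kidneys that goes back to outbred heterogeneous stock rats, so the controls are HSRA rats as well. The samples are described as independent biological replicates; no source used here gives sex, litter or kidney side. The comparison asks whether cadherin expression in a lone kidney departs from that in age-matched kidneys of the same background.

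Cadherins are calcium-dependent adhesion proteins that hold neighbouring cells together through their extracellular repeats. Classical cadherins bind catenins inside the cell, which connect the junction to actin, and beta-catenin also serves Wnt signalling. In the kidney different segments carry different cadherins: E-cadherin (Cdh1) lies mainly in the distal nephron and collecting duct, N-cadherin (Cdh2) in the proximal tubule, and cadherin 6 in the forming nephron and the proximal tubule. Ksp-cadherin (Cdh16) is a kidney-specific cadherin of the basolateral membrane of tubule cells with a short cytoplasmic tail. Cadherin 11 is a cadherin of mesenchymal cells, and T-cadherin (Cdh13), which is held to the membrane by a lipid anchor and binds adiponectin, is found on vessel walls.

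In the solitary kidneys 6 of the 7 cadherins had a lower mean than in the controls and Cdh2 had a slightly higher one, but no cadherin passed the test. The widest difference was that of Cdh13, which was 1.27-fold lower and was the one cadherin whose groups did not overlap. Cdh3 was 1.20-fold lower and Cdh16 1.13-fold lower. Cdh11, Cdh1 and Cdh6 differed by 1.15-fold, 1.09-fold and 1.06-fold in the same direction. The count at an adjusted p under 0.05 in limma was 0 of 7, where 0% of all genes passed. At an unadjusted p under 0.05, 3 of 7 were lower and 0 higher, beside 4.69% lower and 7.36% higher among all 13796 genes. Among all genes 44.5% had a mean below that of the controls and 55.5% one above it. The median difference of the 7 was -0.18 on the log2 scale, beside 0.02 over all genes. Differences are HSRA-S minus HSRA-C on the log2 scale throughout, SE is their standard error, and adjusted p-values are Benjamini-Hochberg values over all genes tested. Levels of different genes come from different probes and were not compared with each other.

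**Figure D1:**
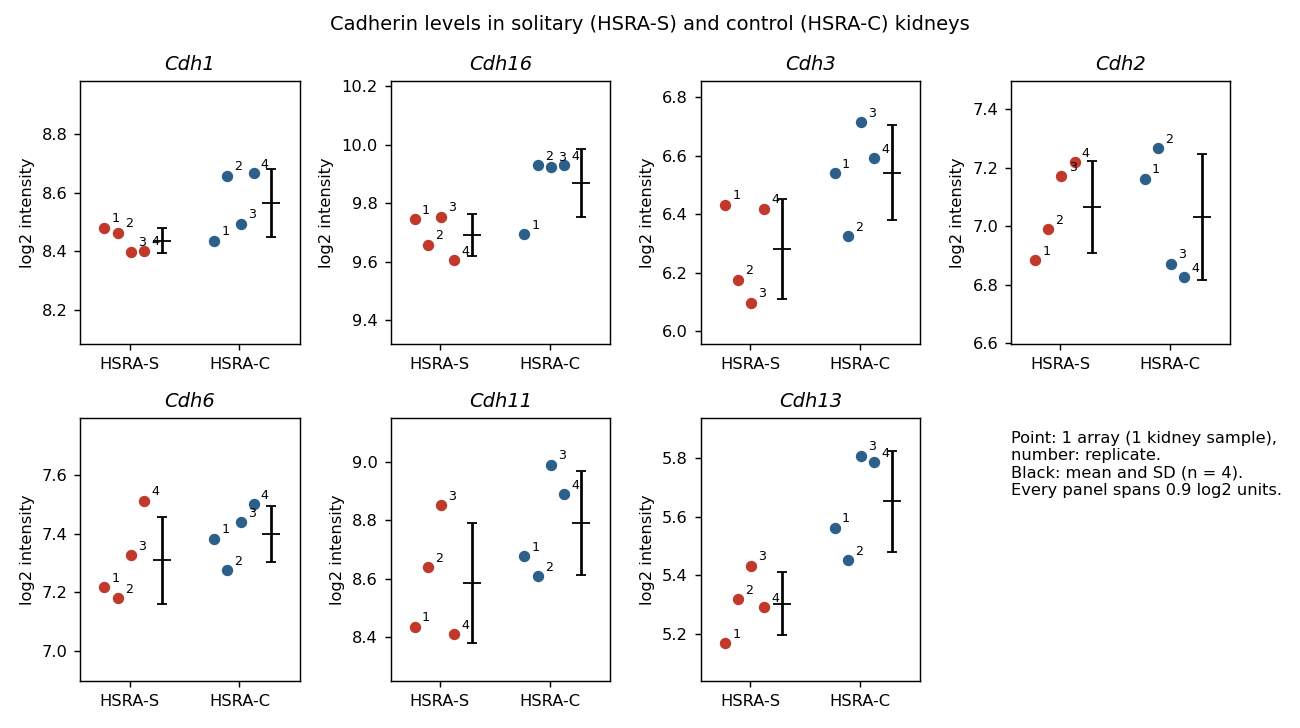
Log2 intensity of each cadherin in every array, by group, with the replicate number beside each point and the mean and SD (n = 4) in black; every panel spans the same width. The groups are apart only for Cdh13, where the highest HSRA-S value is 5.43 and the lowest HSRA-C value 5.45.

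The arrays were alike in overall signal, with median intensities of 30.8 to 32.3 and pairwise correlations of 0.987 to 0.995 on the log2 scale. Defining kidney markers were present in all 8 samples: uromodulin (Umod) lay between log2 11.55 and 11.70 and the phosphate transporter Slc34a1 between 11.83 and 12.09. HSRA-C replicates 3 and 4 stood apart to one side in their tubule markers and HSRA-S replicate 4 to the other. An index of the mean log2 level of 20 proximal tubule markers minus that of 21 collecting duct markers was 1.44 and 1.38 in the former. It was 2.13 and 2.02 in HSRA-C replicates 1 and 2 and 2.12, 2.16, 2.02 and 2.73 in HSRA-S replicates 1 to 4. The urea transporter Slc14a2 of the inner medulla was at log2 8.86 and 9.0 in HSRA-C replicates 3 and 4, at 4.44 in HSRA-S replicate 4 and at 5.99 to 7.22 in the other 5. Each cadherin is therefore also given without HSRA-C replicates 3 and 4, and with this index as a covariate. Without HSRA-S replicate 4, 7 of 7 cadherins had a lower mean in HSRA-S, beside 42.8% of all genes. In that fit 2 of 7 were lower at an unadjusted p under 0.05, beside 4.02% of all genes. Because whole kidney was measured, fewer cells of a type and less RNA per cell cannot be told apart in any value below. Without HSRA-C replicates 3 and 4, 7 of 7 cadherins had a lower mean in HSRA-S, beside 44.8% of all genes, and 0 of 7 reached an unadjusted p under 0.05, where 4.85% of all genes did. With the index as a covariate 6 of 7 were lower, beside 41.4% of all genes, and 0 of 7 reached it, where 7.05% of all genes did.

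Among the epithelial cadherins, Cdh1 (probe set 10807542) encodes E-cadherin, the junction protein of distal epithelia. Its log2 level was 8.48, 8.46, 8.40 and 8.40 in HSRA-S replicates 1 to 4 and 8.44, 8.66, 8.50 and 8.67 in HSRA-C replicates 1 to 4. The HSRA-S samples lay close together, all below the control mean, and HSRA-C replicate 1 fell among them, so the groups overlapped. The difference was -0.13 (SE 0.069, 95% interval -0.28 to 0.03, limma adjusted p = 0.485). The interval corresponds to a level in the solitary kidney of 0.822 to 1.02 times that of the controls. It was -0.11 without HSRA-C replicates 3 and 4 and -0.09 with the index as a covariate. Of the control values, the 2 high ones came from replicates 2 and 4, at 2.02 and 1.38 on the index. The part of the index in this difference was not tested beyond the covariate.

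Cdh16 (probe set 10805652), the kidney-specific cadherin of tubule cells, was at log2 9.74, 9.66, 9.75 and 9.61 in HSRA-S replicates 1 to 4. In HSRA-C it was at 9.69 in replicate 1 and at 9.93 in each of replicates 2, 3 and 4. Of the controls, 3 were thus above every solitary kidney, while replicate 1 lay among the solitary kidneys. The group means were 9.69 ± 0.071 and 9.87 ± 0.12 (SD, n = 4 each), a difference of -0.18 (SE 0.073, 95% interval -0.34 to -0.02). The limma p was 0.0345 unadjusted and 0.387 adjusted. The difference was -0.12 without HSRA-C replicates 3 and 4 (unadjusted p = 0.228 in limma) and -0.08 with the index as a covariate (unadjusted p = 0.371). Without HSRA-C replicate 1 it was -0.24. Collecting duct markers were below 0 in 19 of 21 genes, beside 44.5% of all genes. Their list means were 7.59 to 8.0 in HSRA-S, and 7.83, 8.0, 8.26 and 8.32 in HSRA-C replicates 1 to 4. Their part in the Cdh16 and Cdh1 differences was not tested beyond the covariate.

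Cdh3 (probe set 10807525), P-cadherin, is a classical cadherin first described in placenta and found in several epithelia. It was at log2 6.43, 6.18, 6.10 and 6.42 in HSRA-S replicates 1 to 4 and at 6.54, 6.32, 6.71 and 6.59 in HSRA-C replicates 1 to 4. HSRA-C replicate 2 was the lowest control and lay below HSRA-S replicates 1 and 4. The other three controls were above all HSRA-S samples. The difference was -0.26 (SE 0.10, 95% interval -0.49 to -0.03), with a limma p of 0.0314 unadjusted and 0.383 adjusted. It was -0.15 without HSRA-C replicates 3 and 4 (unadjusted p = 0.253 in limma) and -0.24 with the index (unadjusted p = 0.123). In the RefSeq table of assembly GRCr8, Cdh3 and Cdh1 are direct neighbours with 0 annotated genes between them, and 5 of the 7 cadherins (these 2, Cdh11, Cdh13 and Cdh16) share a chromosome.

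Among the cadherins of the proximal and forming nephron, Cdh2 (probe set 10803323), N-cadherin, was at log2 6.88, 6.99, 7.17 and 7.22 in HSRA-S replicates 1 to 4 and at 7.16, 7.27, 6.87 and 6.83 in HSRA-C replicates 1 to 4. HSRA-C replicates 3 and 4 were the lowest of all 8 samples, and HSRA-C replicate 2 was the highest, so the solitary kidneys lay within the span of the controls. The difference was 0.03 (SE 0.12, 95% interval -0.22 to 0.29, limma adjusted p = 0.934), which leaves room for a level of 0.857 to 1.22 times that of the controls. The sign turned without HSRA-C replicates 3 and 4 (-0.15, SE 0.11) and with the index as a covariate (-0.18, SE 0.11). The mean of the 20 proximal tubule markers was 9.70 in both HSRA-C replicates 3 and 4, and 9.96 and 10.02 in HSRA-C replicates 1 and 2. In HSRA-S replicates 1 to 4 it was 10.12, 10.02, 9.97 and 10.31. HSRA-C replicates 3 and 4 were thus the lowest samples both in this mean and in Cdh2. HSRA-S replicate 1 was close to HSRA-C replicate 3 in Cdh2 but not in this mean. The part of these markers in the Cdh2 levels was not tested beyond the covariate.

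Cdh6 (probe set 10822043), cadherin 6, is a type II cadherin known from the epithelium of the developing nephron. Its levels were log2 7.22, 7.18, 7.33 and 7.51 in HSRA-S replicates 1 to 4 and 7.38, 7.28, 7.44 and 7.50 in HSRA-C replicates 1 to 4. HSRA-S replicate 4 was the highest sample of all, and HSRA-S replicates 1 and 2 were the lowest. The difference was -0.09 (SE 0.085, 95% interval -0.28 to 0.10, limma adjusted p = 0.698). It was -0.02 without HSRA-C replicates 3 and 4, -0.11 with the index and -0.16 without HSRA-S replicate 4.

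Among the cadherins of stroma and vessels, Cdh13 (probe set 10808274), T-cadherin, differed most. It was at log2 5.17, 5.32, 5.43 and 5.29 in HSRA-S replicates 1 to 4 and at 5.56, 5.45, 5.81 and 5.79 in HSRA-C replicates 1 to 4. All 4 solitary kidneys were below all 4 controls, but the gap between HSRA-S replicate 3 and HSRA-C replicate 2 was only 0.02. Groups without overlap were found for 6.29% of all genes, 2.17% in the lower direction. The means were 5.30 ± 0.11 and 5.65 ± 0.17 (SD, n = 4 each), and the difference was -0.35 (SE 0.094, 95% interval -0.56 to -0.14). The solitary kidney thus had 0.785 times the control level, with an interval of 0.678 to 0.908. The limma p was 0.00408 unadjusted and 0.331 adjusted.

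The size of the Cdh13 difference depended on the 2 control samples with low tubule index. It was -0.20 (SE 0.092, unadjusted p = 0.0581 in limma) without HSRA-C replicates 3 and 4 and -0.21 (SE 0.10, unadjusted p = 0.0744) with the index as a covariate. Leaving out any single sample gave -0.42 to -0.30, with unadjusted p-values of 0.00122 to 0.0140 in limma. Endothelial markers were below 0 in 10 of 11 genes, where 44.5% of all genes were below and 55.5% above 0. Their list means were 7.64 to 7.81 in HSRA-S, and 7.81, 7.81, 7.91 and 7.95 in HSRA-C replicates 1 to 4. Fibroblast and stromal markers were below 0 in 11 of 12 genes (7.79 to 8.08 against 8.02 to 8.27), and smooth muscle and pericyte markers in 7 of 11 (6.37 to 6.60 against 6.46 to 6.58). In HSRA-C replicates 1 to 4 the fibroblast and stromal mean was 8.02, 8.08, 8.24 and 8.27. In other marker lists, podocyte genes were below 0 in 9 of 9 (7.61 to 7.78 against 7.77 to 7.89), leukocyte genes above 0 in 11 of 11 (5.84 to 6.28 against 5.61 to 5.94) and cell cycle genes above 0 in 16 of 16 (5.78 to 6.36 against 5.54 to 6.24). The part of these lists in the result was not tested.

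Cdh11 (probe set 10805746), the mesenchymal cadherin, was at log2 8.44, 8.64, 8.85 and 8.41 in HSRA-S replicates 1 to 4 and at 8.68, 8.61, 8.99 and 8.89 in HSRA-C replicates 1 to 4. HSRA-C replicates 3 and 4 were the 2 highest samples, but HSRA-S replicate 3 was above the other two controls. The difference was -0.21 (SE 0.12, 95% interval -0.47 to 0.05, limma adjusted p = 0.500). It was -0.06 without HSRA-C replicates 3 and 4 and 0.01 with the index as a covariate, so its sign was not kept.

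**Figure D2:**
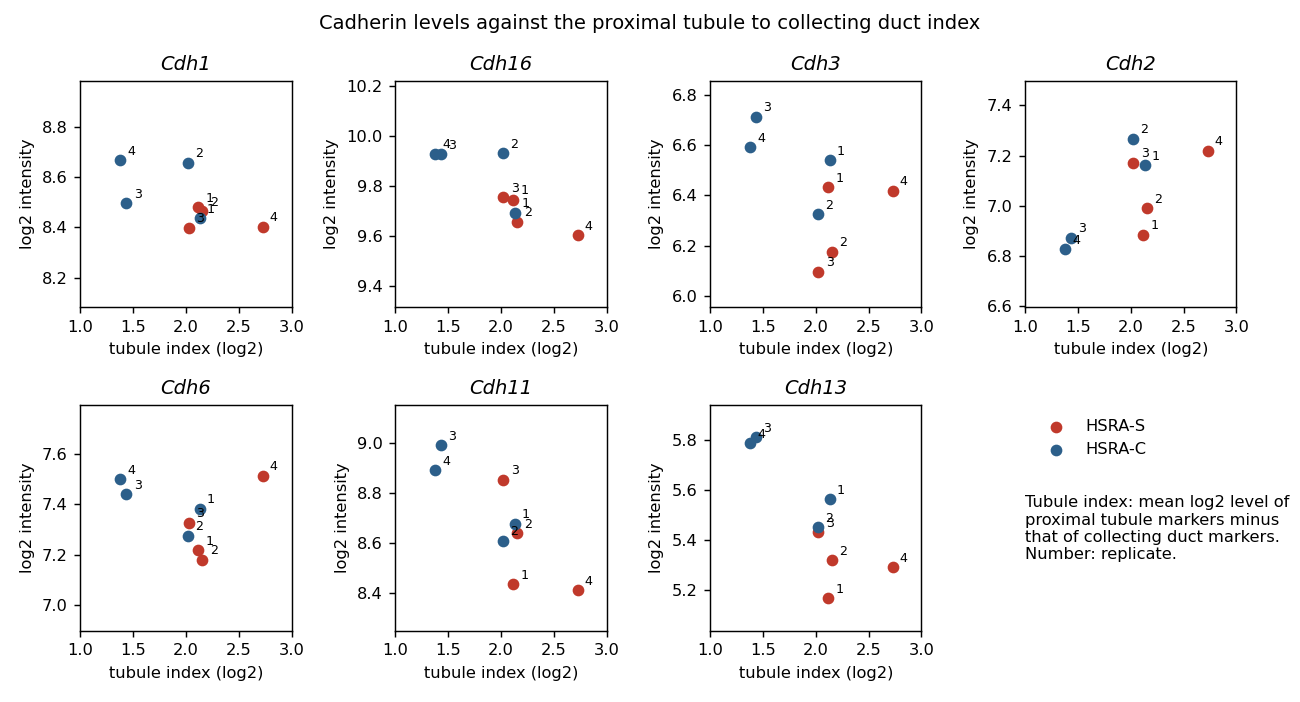
Log2 intensity of each cadherin against the tubule index (mean log2 level of proximal tubule markers minus that of collecting duct markers), with 1 point per array and the replicate number beside it. HSRA-C replicates 3 and 4 sit at 1.44 and 1.38 on the index, where Cdh13, Cdh11 and Cdh3 are highest and Cdh2 is lowest.

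The 7 genes were also compared in pairs over the 8 arrays. Of 21 pairs of cadherins, 15 had a positive Pearson r, and every pair with a negative r included Cdh2. In an exact two-sided permutation of the samples, 2 pairs reached an unadjusted p under 0.05. After Benjamini-Hochberg adjustment over the 21 pairs 0 passed, which at 8 arrays does not show that the genes vary apart. Without HSRA-C replicates 3 and 4, 15 of 21 were again positive, and every pair with Cdh2 was among them. The closest pair was Cdh11 and Cdh13, the cadherins of stroma and vessels, with r = 0.87 (exact permutation p = 0.00660, adjusted 0.130) and Spearman's rho of 0.86 (exact permutation p = 0.0107, adjusted 0.225). Within the groups their r was 0.86 over the 4 HSRA-S and 0.98 over the 4 HSRA-C samples. It was 0.80 without the 2 samples farthest from the median of Cdh11 and 0.68 without HSRA-C replicates 3 and 4. The second was Cdh1 and Cdh16, both epithelial, with r = 0.80 (exact permutation p = 0.0124, adjusted 0.130) and rho of 0.71 (exact permutation p = 0.0576, adjusted 0.463). Within the groups their r was 0.22 over the 4 HSRA-S and 0.74 over the 4 HSRA-C samples. It was 0.60 without the 2 samples farthest from the median of Cdh1, and 0.86 without HSRA-C replicates 3 and 4. HSRA-C replicate 1 was the lowest control for both genes.

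For each cadherin the tested genes with the most similar profile were found by Pearson r over the 8 arrays. They were picked for that r, so it describes likeness and carries no test. Cdh13 was most like Rgs5, a signalling regulator that marks pericytes (r = 0.99, rho = 0.98), and Nkd1, an inhibitor of Wnt signalling (r = 0.98, rho = 0.95). Rgs5 was at log2 8.84, 8.96, 9.18 and 8.97 in HSRA-S replicates 1 to 4 and at 9.26, 9.20, 9.62 and 9.62 in HSRA-C replicates 1 to 4, which is the order of the samples for Cdh13 except that HSRA-S replicates 2 and 4 trade places. Without HSRA-C replicates 3 and 4 the likeness to Cdh13 was 0.98 for Rgs5 and 0.95 for Nkd1. Cdh2 was most like Cyp2j3, a cytochrome P450 (r = 0.98), and Proz, protein Z of coagulation (r = 0.97). Cdh6 was most like Mfsd9, a member of the major facilitator superfamily (r = 0.98), and Aplnr, the apelin receptor of vessels (r = 0.95). Cdh16 was most like Btbd7 (r = 0.98) and Cped1 (r = 0.97), Cdh1 like Dennd6a (r = 0.996) and Gpbp1l1 (r = 0.97). Cdh3 was most like Akap8l (r = 0.98) and Phc1, a Polycomb protein (r = 0.97), and Cdh11 like Mbd6 (r = 0.98) and Srrm1, a splicing factor (r = 0.97).

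The catenins and other partners at the junction took both directions. Of 18 tested genes 9 were above and 9 below 0, from -0.22 for Nectin4 to 0.36 for alpha-catenin 3 (Ctnna3, SE 0.20, limma adjusted p = 0.488). At an unadjusted p under 0.05 there were 1 higher and 2 lower, beside 7.36% higher and 4.69% lower among all genes. At an adjusted p under 0.05 there were 0. Beta-catenin (Ctnnb1), which links classical cadherins to alpha-catenin, was at 9.81 and 9.80 in HSRA-S and HSRA-C, a difference of 0.00 (SE 0.058). Plakoglobin (Jup), which lies in desmosomes and can take the place of beta-catenin in some other junctions, was at -0.14 (SE 0.063, limma adjusted p = 0.414). Nectin1, an immunoglobulin-type adhesion protein that works beside cadherins, was at 0.21 (SE 0.079, adjusted p = 0.372), and its groups did not overlap, as held in the higher direction for 4.12% of all genes. Nectin2, of the same family, was at -0.17 (SE 0.075). Without HSRA-C replicates 3 and 4 Jup was at -0.08, Nectin1 at 0.22 and Nectin2 at -0.12. In that fit 1 gene was lower and 1 higher at an unadjusted p under 0.05, beside 4.85% of all genes in either direction. They were Nectin4 at -0.39 (unadjusted p = 0.0267 in limma) and Ctnna2 at 0.25 (unadjusted p = 0.0326). Ctnna2 was the dimmest tested gene of this list, with a log2 mean of 3.69.

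Among transcription factors and splicing factors that act on cadherin genes or on the epithelial state, 0 of 16 tested genes passed after adjustment. Of the 16, 14 were below 0, beside 44.5% of all genes, and the median was -0.16. At an unadjusted p under 0.05, 6 were lower and 0 higher, beside 4.69% lower among all genes. Zeb2 and Snai1, which repress E-cadherin, were at -0.30 (SE 0.085) and -0.28 (SE 0.086), with limma adjusted p-values of 0.331 for each. Zeb1, a further repressor of E-cadherin, was at -0.14 (SE 0.055), and the groups of both Zeb genes did not overlap, as held in the lower direction for 2.17% of all genes. Twist2 was at -0.35 (SE 0.15) and Tfap2b, a factor of the distal nephron, at -0.26 (SE 0.098). Tcf3, which has also been described as a repressor of E-cadherin, was at -0.16 (SE 0.070). Without HSRA-C replicates 3 and 4 this list had 13 of 16 genes below 0, beside 44.8% of all genes. It had 1 gene at an unadjusted p under 0.05, beside 4.85% of all genes. That gene was Tcf3 at -0.23 (unadjusted p = 0.0182 in limma), while Zeb2 was at -0.19, Snai1 at -0.17, Twist2 at -0.16, Zeb1 at -0.13 and Tfap2b at -0.10. With the index as a covariate 9 of 16 were below 0, beside 41.4% of all genes, and Tcf3 was at -0.25.

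Enzymes that cut or turn over cadherins were spread around 0. Of 13 tested genes 7 were above and 6 below, and 0 passed after adjustment. At an unadjusted p under 0.05, 1 gene was higher, beside 7.36% of all genes. That gene, the proprotein convertase Pcsk5, was at 0.25 (SE 0.10, limma adjusted p = 0.383), and at 0.10 without HSRA-C replicates 3 and 4 and 0.09 with the index. Psen2, a presenilin, was at 0.13 (SE 0.068), and Adam10, the main sheddase of E-cadherin and N-cadherin, at -0.04 (SE 0.078).

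Of 29 other tested genes of the cadherin superfamily 15 were above and 14 below 0, with a median of 0.01. At an unadjusted p under 0.05 there were 5 lower and 1 higher, beside 4.69% lower and 7.36% higher among all genes. After adjustment there were 0. Pcdh17, a protocadherin, was at log2 6.76, 6.82, 6.90 and 6.81 in HSRA-S and at 7.0, 7.14, 7.09 and 7.07 in HSRA-C, with no overlap. Its difference was -0.25 (SE 0.060, limma adjusted p = 0.331) and was -0.25 also without HSRA-C replicates 3 and 4. Cdh5, the endothelial VE-cadherin, was at -0.21 (SE 0.061), Celsr1, a planar polarity cadherin, at -0.21 (SE 0.060), and Fat4, a large cadherin of kidney stroma, at -0.34 (SE 0.10). The groups of Cdh5 and Celsr1 did not overlap either. Together with Pcdh17 these were 3 of 29 genes, all lower, beside 2.17% of all genes in the lower direction. Pcdh9 was at -0.20 (SE 0.079), and the 1 gene on the higher side was Pcdh7 at 0.22 (SE 0.089). Without HSRA-C replicates 3 and 4, Fat4 was at -0.18, Cdh5 at -0.16, Celsr1 at -0.15 and Pcdh9 at -0.12. The list then had 2 genes at an unadjusted p under 0.05 in place of 6, beside 4.85% of all genes in place of 12.1%.

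**Figure D3:**
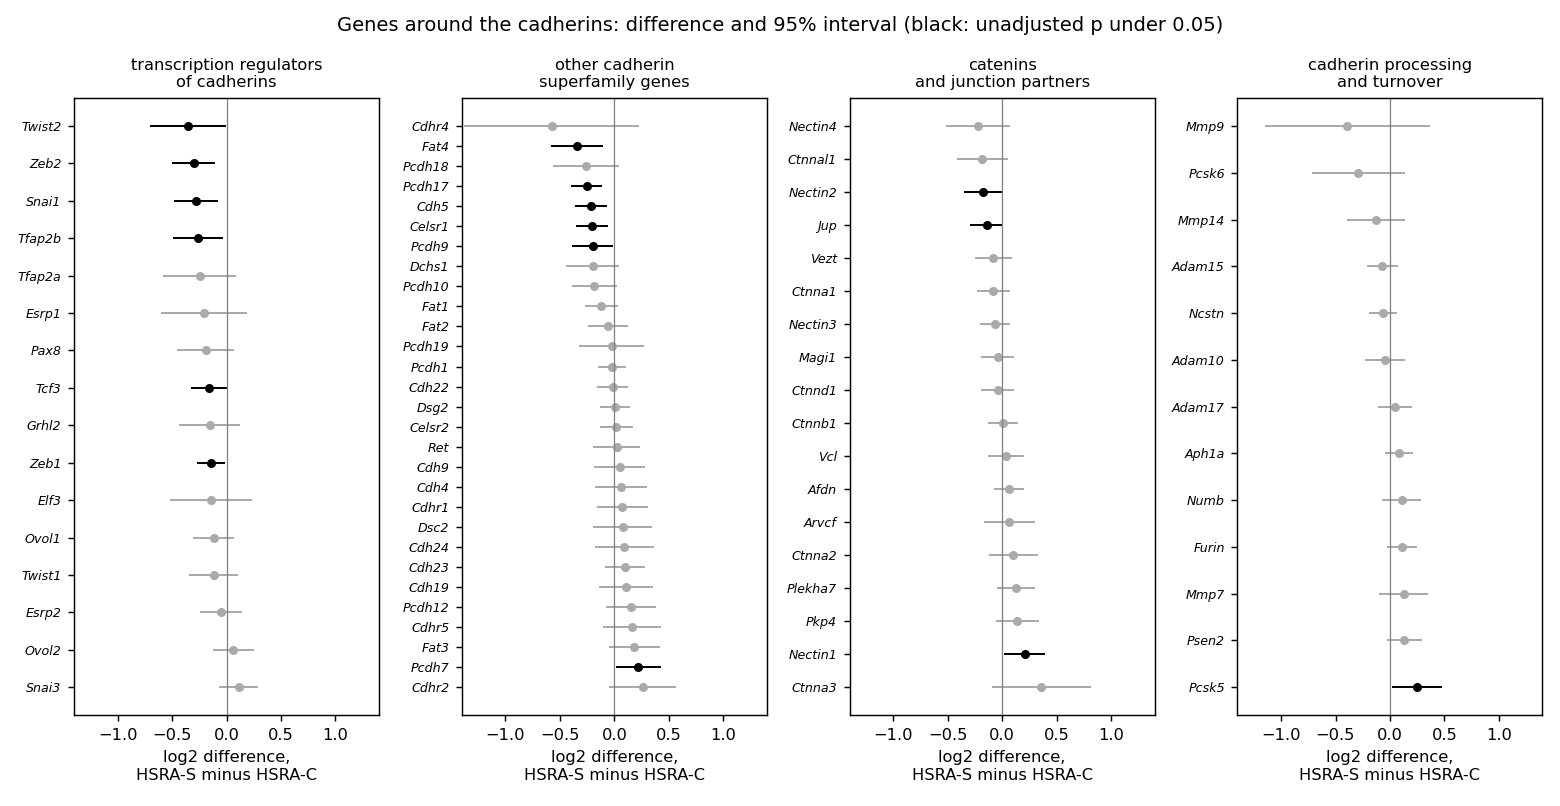
Log2 difference, HSRA-S minus HSRA-C, with its 95% interval for every tested gene of 4 lists around the cadherins; black marks an unadjusted p under 0.05 in limma. Of the 16 transcription and splicing regulators 14 lie below 0, whereas the junction partners divide 9 to 9.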

How the data were processed

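Whole-kidney RNA of 4 HSRA-S and 4 HSRA-C rats was measured on 8 arrays. Per the submitters' processing notes the values are RMA summaries, whose software version is not stated there. The intensities deposited by the authors are on a linear scale (2.12 to 9259), and their log2 was taken. RMA compresses low intensities. The annotation paired 18644 probe sets with 1 gene symbol, 962 with several and 9608 with none; 18460 matched a RefSeq gene (GRCr8) by ID. The brightest probe set was kept for each gene, and the dimmest 20% of genes (log2 mean below 3.63) were left out. The groups were compared with limma 3.58.1 (lmFit and eBayes, group only) in R 4.3.3, with Benjamini-Hochberg adjustment over 13796 genes at 0.05. The fit was also run on simulated data with independently drawn genes and changes larger than those of the cadherins. That run cannot speak to differences of the size seen here or to samples that stand apart. The number of arrays limits precision.

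The members and lists were chosen with earlier results of these data known. All cadherins were named; in each list, up to 5 genes of smallest p under 0.05 (otherwise the 2 of smallest p); and for each cadherin the 2 genes of highest r, unnamed gene models skipped. Ctnnb1, Ctnna2, Ctnna3, Nectin4, Adam10, Tcf3, Pcdh7 and Slc14a2 were named after their values were seen. Alternatives covered filters, probe sets, variance model, scaling, pseudocount, array weights, replicate block, samples and the index covariate.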

Additional observations from a re-analysis of the deposited data

Results flagged for a closer look

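Cdh16 in HSRA-C replicate 1 was the lowest of its group at log2 9.69, while the nearest control was at 9.93. This gap was 97.9% of the group's whole range, above the share that Dixon's criterion sets for 4 samples. Of 14 groups of values examined (7 cadherins in both groups) 1 was singled out, and chance singles out about 1 in 20.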

How the results depend on the processing

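No cadherin passed an adjusted p under 0.05 in any alternative. Over all genes that count was 0, and 1 (no cadherin) with the dimmest 50% left out, an intensity trend, a pseudocount of 16 or array weights. Genes at an unadjusted p under 0.05 numbered 1663, and 2895 over all probe sets, 669 without HSRA-C replicates 3 and 4, 972 with the index as a covariate, and 1010 (without HSRA-C replicate 3) to 1942 when single samples were left out. Cdh2 turned to -0.15 without HSRA-C replicates 3 and 4 and to -0.18 with the covariate, and ranged from -0.034 to 0.11 when single samples were left out, below 0 without HSRA-S replicate 3 or 4 or HSRA-C replicate 3 or 4. Cdh11 turned to 0.011 with the covariate. The cause was not tested. The other 5 kept their direction in all alternatives run; Cdh13 was not tested with the dimmest 50% left out. All 3 cadherins at an unadjusted p under 0.05 were lower, as were 4.69% of all genes. Of these 3, 1 was left without HSRA-S replicate 2, HSRA-C replicate 3 or HSRA-C replicate 4. The share of all genes that were lower at that p was then 3.38%, 2.52% and 2.87%. Over the 8 fits that left out a single sample, Cdh13 was under 0.05 in 8. Cdh3 and Cdh16 were under it in 3 each, and Cdh1 and Cdh11 in 1 each. Without both HSRA-C replicates 3 and 4, 0 cadherins were left, beside 2.17% of all genes. The replicate numbers did not pair the samples (same-number correlations of -0.11 to 0.13). With the replicate block 1586 genes and 2 cadherins reached an unadjusted p under 0.05, with Cdh13 at -0.35 (limma adjusted p = 0.273) and Cdh16 at an unadjusted p of 0.0647.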
